A study of Mus musculus with 6 samples.

Results

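The Myc family and growth regulator oncogenes examined here are 8 genes, Myc, Mycl, Mycn, Ccnd1, Mdm2, Sox2, Yap1 and Akt1, of 49943 RefSeq genes in all. They were chosen by name, and the peaks overlapping each gene's mm10 span plus or minus 2 kb were collected from 6 libraries, which gave 53 peaks out of 517635. The 3 transgenic libraries were from mice labelled SPC-DNMTdelta3B/DG (spelled SPC-DNMTdeltaB/DG for replicate 2), which carried a deletion variant of the de novo DNA methyltransferase DNMT3B under the promoter of the surfactant protein C gene, a promoter active in alveolar type 2 cells. The 3 wild-type libraries were from age-matched mice, and both groups were 12 to 16 months old. Each library was made from lung DNA, which mixes the cells that use the promoter with all others. The labels do not say that each library came from its own animal, nor which founder line a transgenic library belongs to, so p-values measure the spread between libraries, which may be technical. The question behind the comparison is how expression of the variant relates to methylation of lung DNA, and a peak in a list marks a stretch at which captured methylated fragments were enriched.

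The Myc proteins are transcription factors that pair with Max, bind E-box sequences and drive growth, and Mycn has a known role in lung epithelial progenitors of the embryo. Ccnd1 encodes cyclin D1, which activates Cdk4 and Cdk6 at the start of the cell cycle, and Mdm2 encodes the ubiquitin ligase that keeps p53 low. Yap1 encodes the transcriptional effector restrained by the Hippo kinases, Akt1 a serine/threonine kinase of insulin and growth factor signalling, and Sox2 a transcription factor of airway progenitors. Promoters rich in CpG are usually free of methylation in normal tissue, while gene bodies are often methylated.

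The 6 members with an entry in the RefSeq promoter table (GRCm38.p6) had 7 promoters of 300 bases, 250 before and 50 after a transcription start, and no library had a peak over any of them. Of 13079 promoters of protein-coding genes with at least 8 CpG, the lowest member count, 4.22, 5.23 and 2.87% had a peak in transgenic replicates 1, 2 and 3, and 2.39, 5.44 and 1.08% in wild-type replicates 1, 2 and 3, so 0 of 7 is near the background. The 4 below are shown because 3 of them belong to genes with recurrent peaks inside the gene (Mycn, Yap1 and the inner promoter of Akt1), and 1 to the member without any peak (Sox2). Each reads 5′ to 3′ on the gene's strand, with every CpG, the dinucleotide that carries the methylation, in capitals.
Mycn, chr12:12941787-12942086, minus strand: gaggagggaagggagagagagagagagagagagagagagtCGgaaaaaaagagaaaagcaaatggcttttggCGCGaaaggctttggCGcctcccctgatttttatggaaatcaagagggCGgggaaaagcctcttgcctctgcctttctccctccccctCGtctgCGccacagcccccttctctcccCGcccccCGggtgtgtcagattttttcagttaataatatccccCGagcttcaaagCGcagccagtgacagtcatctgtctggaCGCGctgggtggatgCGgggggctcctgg
Yap1, chr9:8004547-8004846, minus strand: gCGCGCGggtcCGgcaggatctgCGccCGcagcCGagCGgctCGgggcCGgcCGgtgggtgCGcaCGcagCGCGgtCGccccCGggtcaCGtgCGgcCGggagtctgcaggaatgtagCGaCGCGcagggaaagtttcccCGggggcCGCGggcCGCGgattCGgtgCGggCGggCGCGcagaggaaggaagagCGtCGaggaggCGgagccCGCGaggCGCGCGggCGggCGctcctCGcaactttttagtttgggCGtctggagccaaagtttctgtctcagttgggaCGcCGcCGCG
Akt1 inner promoter, chr12:112674227-112674526, minus strand: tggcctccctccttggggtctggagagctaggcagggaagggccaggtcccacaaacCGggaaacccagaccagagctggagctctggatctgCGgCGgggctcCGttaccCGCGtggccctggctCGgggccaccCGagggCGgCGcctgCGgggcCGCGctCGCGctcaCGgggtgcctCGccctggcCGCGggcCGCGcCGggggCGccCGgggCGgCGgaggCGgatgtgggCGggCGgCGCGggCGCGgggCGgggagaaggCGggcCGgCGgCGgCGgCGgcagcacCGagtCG
Sox2, chr3:34649745-34650044, plus strand: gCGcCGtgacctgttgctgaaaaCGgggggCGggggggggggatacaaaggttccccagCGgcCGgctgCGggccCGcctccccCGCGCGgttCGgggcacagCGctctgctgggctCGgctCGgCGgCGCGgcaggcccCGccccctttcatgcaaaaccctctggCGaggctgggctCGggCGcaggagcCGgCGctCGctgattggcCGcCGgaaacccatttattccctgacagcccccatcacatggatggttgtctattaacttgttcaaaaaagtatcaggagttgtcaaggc
The Yap1 promoter held 49 CpG, more than 99.0% of the 32851 promoters in the table. The inner Akt1 promoter held 42 CpG, Mdm2 35, Sox2 27, Mycl 22 and Mycn 14, against a median of 7 over the table. The outer Akt1 promoter held 8 CpG. The E-box CACGTG, which reads the same on both strands, was found once in the Yap1 promoter, with its first base at position -163 from the transcription start, and in none of the other 6 member promoters; it was present in 7.15% of all promoters. The GC-box letters GGGCGG were searched on both strands, with overlapping matches counted, and occurred in 35.7% of all promoters and in all member promoters but the outer one of Akt1.

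Lists held 120349, 116352 and 78952 peaks in transgenic replicates 1, 2 and 3, and 60131, 111211 and 30640 peaks in wild-type replicates 1, 2 and 3. The members' peaks followed the lists, with 15, 12 and 9 peaks in the transgenic libraries and 5, 12 and 0 in the wild-type libraries. Per 10000 peaks of the list, that was 1.25, 1.03 and 1.14 in the transgenic and 0.832, 1.08 and 0 in the wild-type libraries. Wild-type replicate 2 was like the transgenic libraries in list length and in its peaks at these genes, and wild-type replicate 3 had no peak at any of the 8 genes, although 33.1% of protein-coding genes had one in that list. For 0 of 8 genes the rough rule of 3 divided by the number of genes allows a share of up to 37.5%. That rule takes genes of unlike length as alike, so no departure is read from the 0. Identity of the tissue was not established from these peak lists. Among 20 marker genes of lung cell types, 5, 6 and 4 had a peak at a gene end in the transgenic libraries and 2, 4 and 1 in the wild-type libraries. Over protein-coding genes the share was 27.4, 26.7 and 17.8% in the transgenic and 13.2, 26.2 and 5.56% in the wild-type libraries, so the marker counts were near the background. The part of tissue identity in the results at the 8 genes was not tested.

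**Figure D1:**
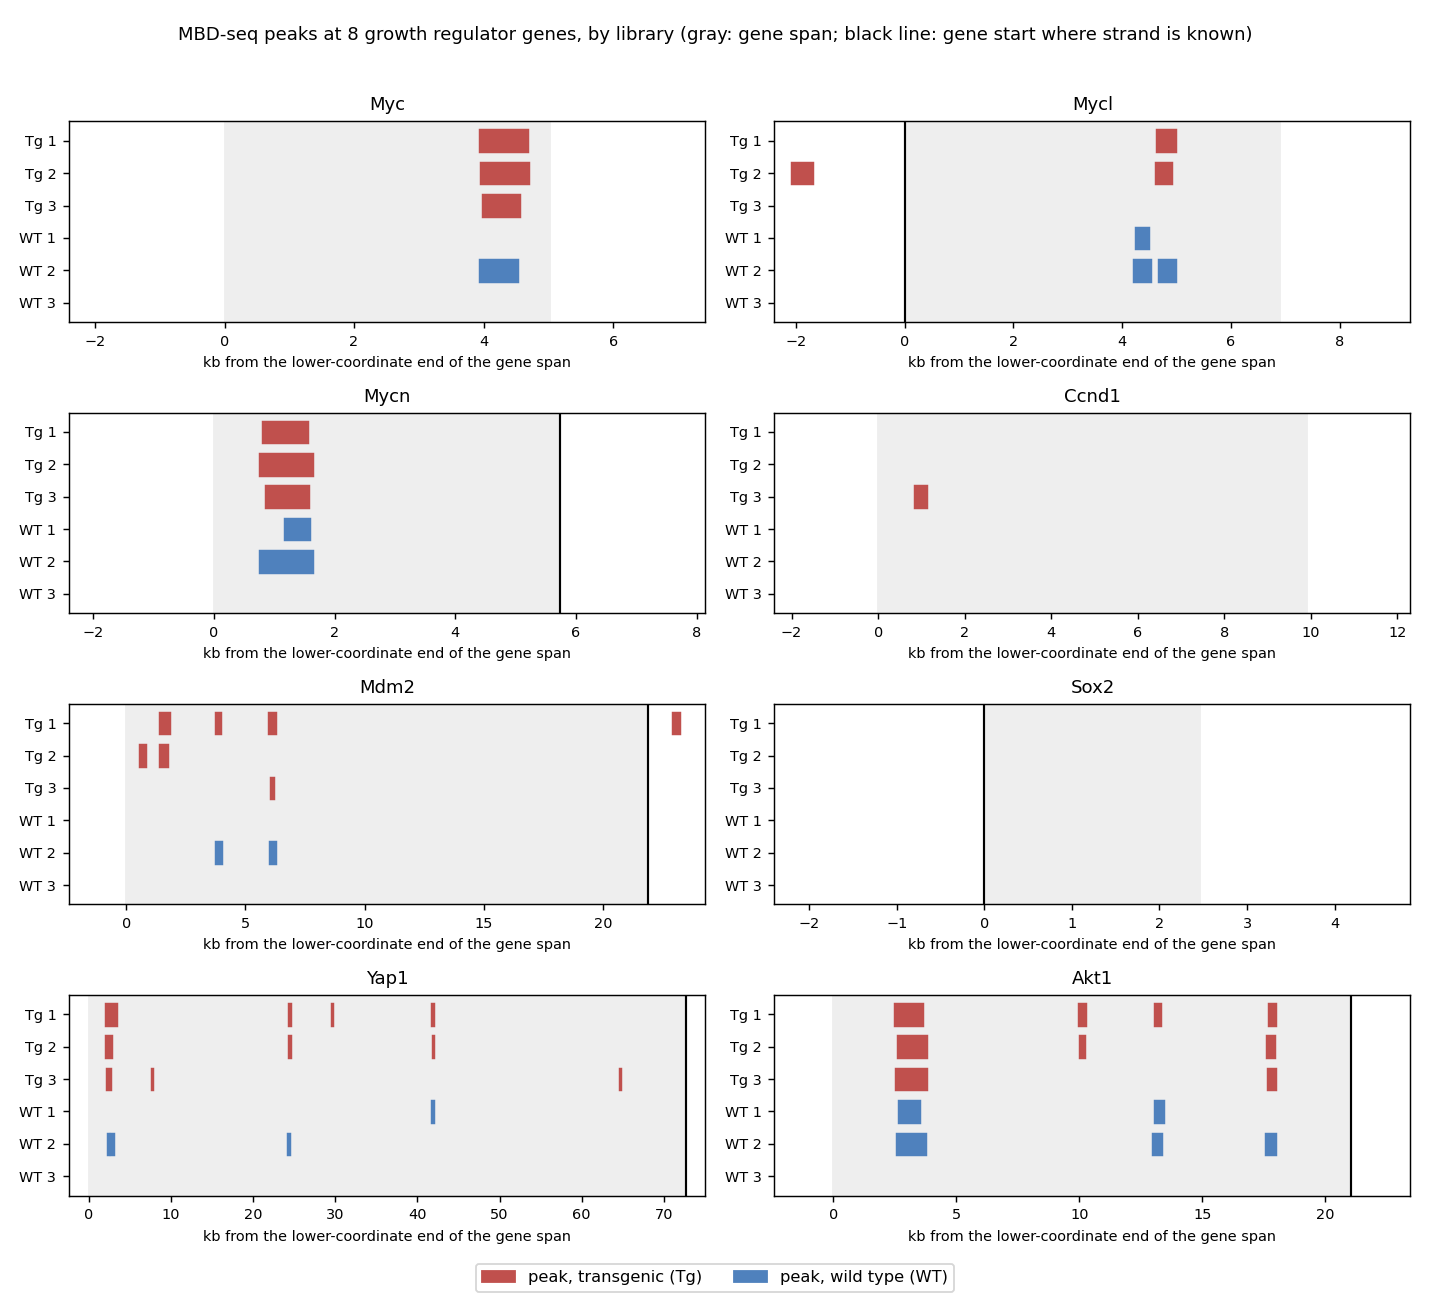
Each panel shows 1 gene, with distance in kb from the lower-coordinate end of its span on the horizontal axis and the 6 libraries as rows; colored boxes are peaks, gray is the gene span and a black line the gene start where the strand is known. Peaks recur at the same places in Myc, Mycn, Yap1 and Akt1, none touches a marked gene start, wild-type replicate 3 has none, and Sox2 is empty.

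Myc had a single region with peaks, near the higher-coordinate end of the gene (chromosome 15, 61985341 to 61990361, mm10). The joined region ran from 61989264 to 61990033 and lay within the span, 328 bp from that end. It was a peak of 768, 754 and 593 bp in transgenic replicates 1, 2 and 3, against 0, 600 and 0 bp in wild-type replicates 1, 2 and 3. The authors' scores were 307, 314 and 143 in the transgenic libraries, and 252 in wild-type replicate 2. All 3 transgenic libraries and 1 of 3 wild-type libraries had the peak, and the groups overlapped because the width in wild-type replicate 2 exceeded that in transgenic replicate 3. Peaks covered 7.82 ± 1.08% of the Myc window in transgenic and 2.22 ± 3.84% in wild-type libraries (SD, n = 3 libraries each, two-sided exact permutation p = 0.20). This pattern of 3 transgenic libraries and wild-type replicate 2 alone was found at 10.4% of all joined regions of the 6 lists.

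Mycn, the paralog best known from neural and embryonic tissues, also had 1 region, here towards the end opposite the gene start (chromosome 12, 12936834 to 12937741; gene 12936093 to 12941836, minus strand). It was found in 5 of 6 libraries. The peaks were 772, 908 and 730 bp wide in transgenic replicates 1, 2 and 3, and 424, 890 and 0 bp in wild-type replicates 1, 2 and 3. Scores were 790, 338 and 273 in the transgenic libraries and 75.7 and 347 in wild-type replicates 1 and 2. In transgenic replicate 1 only 3.02% of that list's peaks scored as high, which makes it the member peak that ranked highest within its own list. Coverage of the Mycn window was 8.24 ± 0.955% in transgenic and 4.50 ± 4.57% in wild-type libraries (SD, n = 3 libraries each, exact permutation p = 0.30), with wild-type replicate 2 inside the transgenic range.

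Mycl, the paralog first found amplified in human small-cell lung cancer, carried weak peaks only. Inside the gene (chromosome 4, 122995588 to 123002490, plus strand) 2 neighbouring regions lay 4193 to 4996 bp from the gene start. The nearer one had a peak in no transgenic library and in wild-type replicates 1 and 2, and the farther one in transgenic replicates 1 and 2 and wild-type replicate 2. All scores at Mycl were between 53.5 and 69.8, close to the lowest score of 50. Coverage was 3.29, 5.78 and 0% in transgenic replicates 1, 2 and 3, against 2.28, 6.15 and 0% in wild-type replicates 1, 2 and 3, a difference of 0.211 percentage points (exact permutation p = 1). The sign of this difference turned when 1 of 3 libraries was left out, to -1.17 without transgenic replicate 2 and to -0.0535 and -1.20 when wild-type replicate 1 or 3 was dropped. It was also -1.19 without the flanks, where the peak of transgenic replicate 2 upstream of Mycl no longer counted.

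Ccnd1, the cyclin D1 gene (chromosome 7, 144929931 to 144939831), had 1 peak in all, in transgenic replicate 3. It was 300 bp wide, had a score of 58.9 and began at 144930759, 828 bp inside the lower-coordinate end. The neighbouring gene LTO1, which overlaps that end of Ccnd1, ends at 144930748 and had no peak. In the other 5 libraries the nearest peak was 20222 to 137894 bp from the gene. Ccnd1 was without an enriched stretch in 2 transgenic and 3 wild-type libraries.

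Sox2 (chromosome 3, 34649995 to 34652461, plus strand) had no peak in any library within 2 kb of its span. The nearest peak lay upstream in 5 libraries, at nearly the same distance, 14976, 15147 and 15083 bp in transgenic replicates 1, 2 and 3 and 15015 and 15102 bp in wild-type replicates 1 and 2. In transgenic replicate 1 it ran from 34634537 to 34635019, and its scores were 291, 159 and 195 in the transgenic libraries and 85.2 and 243 in those 2 wild-type libraries. It lies within Sox2ot, the long noncoding RNA gene whose span contains Sox2, and Sox2ot as a whole held 10, 12 and 6 peaks in the transgenic and 3, 8 and 0 in the wild-type libraries. Captured sequence upstream of the peak-free stretch at Sox2 was thus found in both groups.

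Mdm2 (chromosome 10, 117688875 to 117710758, minus strand) had 5 small regions, 178 to 461 bp wide per peak, of which 4 lay in the part of the gene away from its start. The number of peaks was 4, 2 and 1 in transgenic replicates 1, 2 and 3, and 0, 2 and 0 in wild-type replicates 1, 2 and 3. No region was shared by more than 3 libraries. The most shared one, from 15587 bp after the gene start, was a peak in transgenic replicates 1 and 3 (scores 67.3 and 127) and in wild-type replicate 2 (score 72.6). The peak of transgenic replicate 1 upstream of the start began 1009 bp from it, just outside the 1000 bp window used for gene ends. Coverage was 2.86 ± 2.34% in transgenic and 0.773 ± 1.34% in wild-type libraries (SD, n = 3 libraries each, exact permutation p = 0.20), and the groups overlapped. The neighbouring gene Cpm, which ends at 117687352, reaches into the 2 kb flank of Mdm2. Over its own span Cpm held 5, 6 and 5 peaks in the transgenic and 3, 5 and 1 in the wild-type libraries.

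Yap1, the longest member (chromosome 9, 7931999 to 8004638, minus strand), had 6 regions spread over 72640 bp. The number of peaks was 4, 3 and 3 in transgenic replicates 1, 2 and 3, and 1, 3 and 0 in wild-type replicates 1, 2 and 3. The region shared by most libraries (7933959 to 7935440) lay 1960 bp inside the end opposite the gene start. There the covered width was 1482, 814 and 556 bp in transgenic replicates 1, 2 and 3, and 0, 869 and 0 bp in wild-type replicates 1, 2 and 3, where wild-type replicate 2 had 2 peaks. The highest scores were 235, 180 and 104 in the transgenic libraries and 89.5 in wild-type replicate 2, so the 3 transgenic scores were above the only wild-type one. The scores are not scaled between libraries and were not tested. Coverage of the whole Yap1 window was 3.23, 2.0 and 1.44% in transgenic replicates 1, 2 and 3, against 0.50, 1.54 and 0% in wild-type replicates 1, 2 and 3 (exact permutation p = 0.20). The difference was 1.54 percentage points, and the groups overlapped by transgenic replicate 3 and wild-type replicate 2. When only peaks scoring 96.3 or more (the median over all lists) were kept, the 3 transgenic values lay above the wild-type values (difference 1.24 points, exact permutation p = 0.10), as in 6.51% of all genes with such a peak, and the same held for peak number, as in 2.49%. With lists of equal length Yap1 kept a peak in transgenic replicate 2 alone. The lowest score kept there was 241, 173 and 110 in transgenic replicates 1, 2 and 3, and 74.7, 164 and 50 in wild-type replicates 1, 2 and 3. The common cut at 96.3 thus keeps unlike parts of the lists, which limits the separation it gives at Yap1.

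Akt1 (chromosome 12, 112653821 to 112674884, minus strand) had 4 regions inside the gene. The widest, from 112656271 to 112657622, was a peak in 5 libraries, 1211, 1214 and 1290 bp wide in transgenic replicates 1, 2 and 3, and 871 and 1241 bp in wild-type replicates 1 and 2. Its scores were 583, 368 and 220 in the transgenic libraries and 103 and 442 in those 2 wild-type libraries. Another region, 3050 bp after the gene start, had a score of 161, 73.1 and 119 in the transgenic libraries and 90.0 in wild-type replicate 2. The region 7634 bp after the start instead had a peak in transgenic replicate 1 and in wild-type replicates 1 and 2, with scores of 53.0, 52.0 and 59.0. No peak overlapped Mir6939, a microRNA gene inside Akt1, or Gm30150, a noncoding RNA gene over its start. Coverage of the Akt1 window was 8.75, 7.25 and 6.61% in transgenic replicates 1, 2 and 3, against 5.02, 8.37 and 0% in wild-type replicates 1, 2 and 3 (exact permutation p = 0.30).

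**Figure D2:**
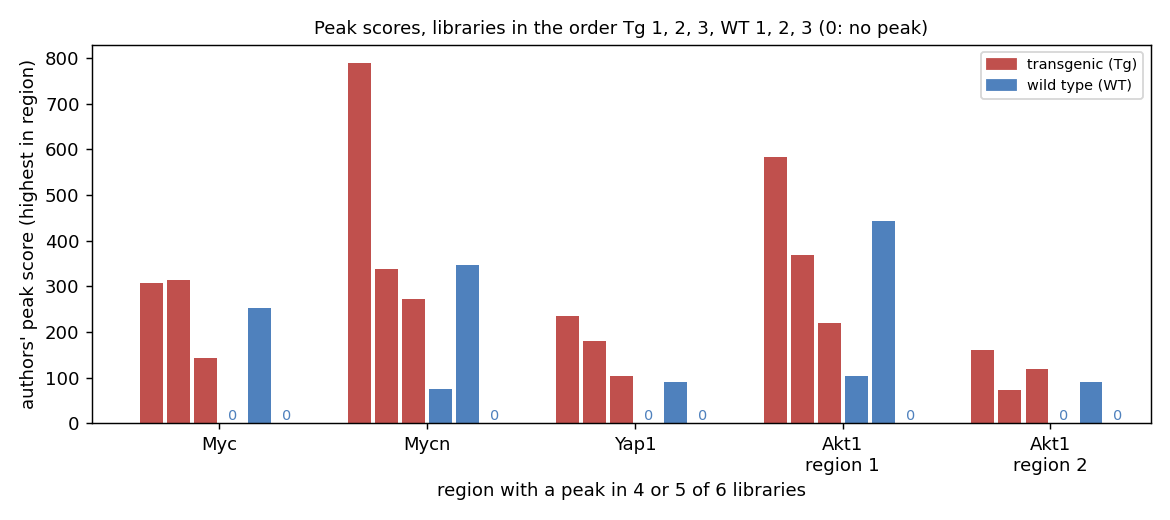
Bars give the authors' peak score (vertical axis, highest in the region) in each library for the 5 regions found in 4 or 5 of 6 libraries, transgenic libraries first in each set, with 0 where a library had no peak. Scores in wild-type replicate 2 lie among or near the transgenic ones, from 89.5 at Yap1 to 442 at Akt1 region 1, which is the wide region away from the gene start, and wild-type replicate 3 has none.

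Joined across libraries, the 53 peaks formed 21 regions. Of these, 7 were found in 1 library, 4 in 2, 5 in 3, 3 in 4, 2 in 5 and 0 in all 6. Over all joined regions of the 6 lists, the shares in 1, 2, 3, 4, 5 and 6 libraries were 28.4, 16.1, 14.2, 15.5, 14.9 and 10.9%. No member region was found in all 3 transgenic and no wild-type library, and the share of all regions with that pattern was not counted. With 21 regions, no departure from the other regions is read from these counts. The 3 regions of 4 libraries, at Myc, Yap1 and Akt1, were each in the transgenic libraries and wild-type replicate 2, a pattern of 10.4% of all joined regions. The 2 of 5 libraries, at Mycn and Akt1, were missing from wild-type replicate 3 alone, as were 11.9% of all joined regions.

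No member separated the groups. In neither peak number nor coverage did all 3 transgenic values lie above, or all 3 below, the 3 wild-type values at any of the 8 genes. Over the 31099 genes with a peak in their window, the transgenic values were all above for 2.93% by peak number and 7.19% by coverage, and all below for 0.0257% and 0.00965%, so 0 of the 7 members with a peak is near the background. The smallest exact permutation p over the 8 genes was 0.20, for the coverage of Myc, Mdm2 and Yap1, and 0.10 is the smallest that 3 against 3 allows. The median coverage difference, transgenic minus wild type, was 2.09 percentage points over the 7 members with a peak and 1.48 over all genes with a peak. Without wild-type replicate 2, coverage of Myc, Mycn, Mdm2, Yap1 and Akt1 was higher in every transgenic library (5 of the 7 members with a peak), as it was for 49.8% of all genes with a peak. Without transgenic replicate 3 that held for Myc, Mdm2 and Yap1 (3 of 6 with a peak, against 32.2%). By peak number the count without wild-type replicate 2 was 3 of 7, against 29.8% of genes with a peak, and without transgenic replicate 3 it was 0 of 6, against 14.9%. With lists of equal length it was 0 of the 5 members that kept a peak, against 1.35% by peak number and 7.36% by coverage.

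**Figure D3:**
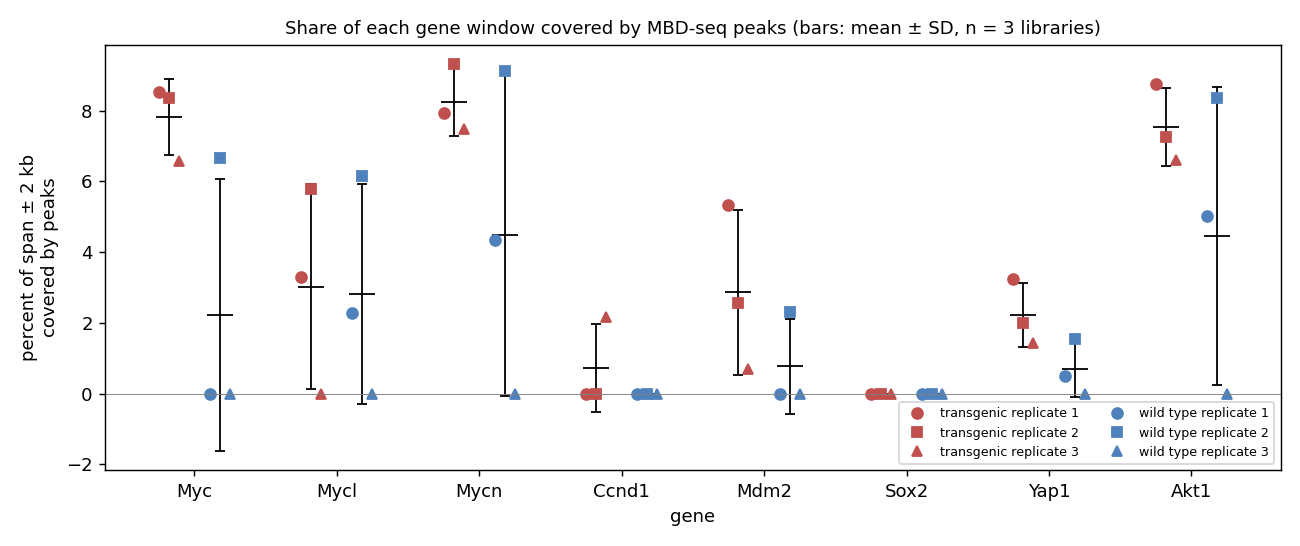
Points give the percent of each gene window (span plus or minus 2 kb, vertical axis) covered by peaks in each of 3 transgenic and 3 wild-type libraries, and black bars the mean ± SD, which runs below 0 where values spread widely. Transgenic means are higher at Myc (7.82% against 2.22%) and Mycn (8.24% against 4.50%), but wild-type replicate 2 lies inside the transgenic range at Myc, Mycn, Mdm2, Yap1 and Akt1.

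No member had a differential region within 2 kb in the authors' deposited table, where 0.461% of all RefSeq genes had one. The nearest in the authors' deposited table lay 99499 bp downstream of Sox2 (log2 fold -1.59, FDR 0.0719). The next was 490134 bp from Akt1 (log2 fold 1.41, FDR 0.0875), and for the other 6 genes the distance in the authors' deposited table was 3282190 bp or more.

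By position, 51 of the members' 53 peaks lay within the gene spans, and the others lay in the outer flanks at the starts of Mycl and Mdm2. Of the 6 members with a known strand, 0 had a peak within 1000 bp of the start in any library, which by the same rough rule allows a share of up to 50%. Over 17492 protein-coding genes of known strand, 10.3, 10.5 and 6.49% had one in transgenic replicates 1, 2 and 3, and 5.12, 10.7 and 2.27% in wild-type replicates 1, 2 and 3, so 6 genes cannot show a departure from the other genes. The body held a peak in 5, 5 and 4 of 6 members in the transgenic libraries and in 4, 5 and 0 of 6 in the wild-type libraries. For all such genes with a body the shares were 67.9, 67.5 and 58.4% in transgenic and 52.5, 66.8 and 32.1% in wild-type libraries. No departure is read from these counts of 6 genes, and gene length was not allowed for. At the other end, Mycn had a peak in transgenic replicates 1, 2 and 3 and in wild-type replicate 2, and Mdm2 in transgenic replicate 2. Counting both ends of all 8 genes, 2, 3 and 3 members had an end peak in the transgenic libraries, which were Myc and Mycn in all 3, Mdm2 in replicate 2 and Ccnd1 in replicate 3. In the wild-type libraries 0, 2 and 0 members had one, Myc and Mycn in replicate 2. The peak of wild-type replicate 1 in the same Mycn region began 1170 bp inside that end, outside the 1000 bp window. Among protein-coding genes the share with an end peak was 27.4, 26.7 and 17.8% in transgenic and 13.2, 26.2 and 5.56% in wild-type libraries.

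**Figure D4:**
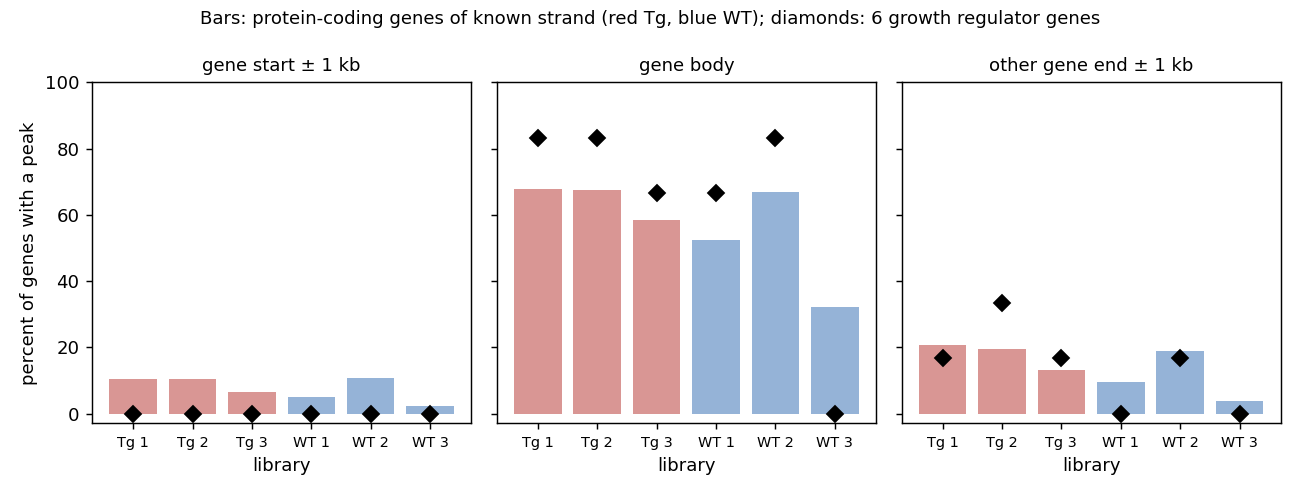
Bars give the percent of protein-coding genes of known strand with a peak at the gene start, in the body and at the other end (3 panels, vertical axis) for each library (horizontal axis), and diamonds the percent of the 6 members of known strand. Members stand at 0 in all libraries at the start, while in the body they lie above the bars in 5 libraries and at 0 in wild-type replicate 3. With 6 genes, and gene length not allowed for, neither shows a departure from the bars.

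The distance from the gene start to the nearest peak was nearly the same in 5 libraries at Mycn and varied widely at Yap1. At Mycn it was 4178, 4095 and 4164 bp in the transgenic libraries and 4150 and 4107 bp in wild-type replicates 1 and 2, all set by the region near the other end. At Akt1 it was 3050, 3106 and 3083 bp in the transgenic and 5210 and 3065 bp in those 2 wild-type libraries. At Yap1, the promoter with the most CpG, it was 19755, 30564 and 7851 bp in the transgenic and 30643 and 48144 bp in those wild-type libraries. In wild-type replicate 3 the distance was 29668 bp at Mycn, 5376 bp at Akt1 and 110607 bp at Yap1. The medians over protein-coding genes were 7037, 7132 and 10486 bp in transgenic replicates 1, 2 and 3, and 12990, 7187 and 29024 bp in wild-type replicates 1, 2 and 3.

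Among 38 further genes of these pathways, 34 had a peak in some library, 2 had all transgenic values of coverage above all wild-type values and none had them below, against 7.19% and 0.00965% of all genes with a peak. Ccnd2, which encodes cyclin D2, had a coverage of 5.6, 4.4 and 3.46% in transgenic replicates 1, 2 and 3, against 1.93, 1.26 and 0% in wild-type replicates 1, 2 and 3. Sox9, a transcription factor gene of distal lung progenitors, had 8.51, 4.56 and 3.46% in transgenic and 0, 3.29 and 0% in wild-type libraries. For both the exact permutation p was 0.10, the smallest possible, and with lists of equal length neither kept separate groups. At equal length Mnt, whose protein pairs with Max and represses transcription, had separate groups instead, with 6.93, 5.42 and 5.2% in transgenic replicates 1, 2 and 3, against 3.02, 0 and 0% in wild-type replicates 1, 2 and 3. That was 1 of the 26 genes that kept a peak, against 7.36% of all such genes, and Mnt is named after its values were seen. Of the list's genes with a peak, 16 of 34 had higher coverage in every transgenic library without wild-type replicate 2, against 49.8% of all genes with a peak. The count was 11 of 34 without transgenic replicate 3, against 32.2%, and 4 of 33 without transgenic replicate 2, against 10.4%. The Hippo kinase gene Stk3 was the only 1 of these 38 genes with a differential region (chromosome 15, 35116400 to 35118550). The authors' deposited table lists it at log2 fold 0.41 and FDR 0.0861. Of all RefSeq genes, short ones included, 0.461% had such a region, and 1 gene is too few to set against that share. In coverage of Stk3 the groups overlapped (exact permutation p = 0.40).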

How the data were processed

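MBD-seq captures fragments of methylated DNA with a methyl-CpG-binding domain protein, here in 6 libraries of mouse lung DNA. The submitters' processing notes name Bowtie, DiffBind and edgeR, without versions, and the build mm10. The 6 peak lists were deposited one per library, and each peak's score is the peak caller's own value as the authors deposited it, with a lowest value of 50 in every list and no scaling between libraries. A deposited table of 407 differential regions by the authors gives log2 concentrations and folds with p-values and FDR, and was read and not refitted. The authors' annotation tables were not used here.

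Gene spans and strand came from RefSeq tables of the same assembly (GRCm38.p6). A peak counted for a gene when at least 1 bp lay in the span plus or minus 2000 bp. Gene ends were the 1000 bp on either side of a span end, and the body was the span without 1000 bp at each end. Exons and introns were not resolved. All 8 members, 38 further genes of their pathways and 20 lung cell-type markers were chosen with earlier results of these data known. Of the pathway list, genes whose libraries did not overlap in covered percent, or which held a differential region, were named.

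Groups were compared per gene by a two-sided exact permutation test of the difference of means over the 6 libraries, which cannot go below p = 0.10. A gene was called when every library of 1 group lay above every library of the other, and the same rule over all genes with a peak is given as background. Alternatives were lists of equal length (30640 top-scoring peaks), a minimum score at the pooled median (96.3), no flank or 5000 bp of flank, 500 and 2000 bp gene-end windows, at least 0.5 of the peak inside, a replicate block, each library left out, and, for the differential regions, flanks of 5000 and 50000 bp and an FDR of 0.05 or less. The counting was checked on the real lists, thinned at random. At 200 genes all peaks were removed and a peak was planted in the transgenic lists only. The outcome there was set by the planting, so this checks the counting and not the comparison where libraries overlap. Read depth is unknown. Python 3.11.15, numpy 2.4.6, pandas 2.3.3 and matplotlib 3.10.9 were used.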

Additional observations from a re-analysis of the deposited data

How the results depend on the processing

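Of 192 values of single genes under the alternatives, 157 kept their direction and their side of the call, and 14 moved to or from 0 without a call. Another 13 became calls with the transgenic values all higher, 4 were higher only within each pair of the replicate block, and 4 turned their sign. The last were all the coverage of Mycl, with -1.19 percentage points without the flanks and a range of -1.20 to 1.88 with 1 library left out. The count of members with separate groups was 0 by both measures with lists of equal length, with either other flank and with at least 0.5 of each peak inside. It was 1 (Yap1) by both measures at the pooled median score, a common cut on scores that are not scaled between libraries. With 1 library left out it was 0 to 3 by peak number and 0 to 5 by coverage, and the higher counts came without wild-type replicate 2 (5 by coverage, 3 by peak number) or transgenic replicate 3 (3 by coverage), where an overlapping library is dropped. The mean number of members with an end peak, transgenic minus wild type, was 2. It was 1.33 with lists of equal length, at the pooled median score and with at least 0.5 of each peak inside. It was 0.667 with a 500 bp window, 2.67 with a 2000 bp window and 1.67 to 2.67 with 1 library left out. Over protein-coding genes the share with an end peak was 27.4, 26.7 and 17.8% in transgenic and 13.2, 26.2 and 5.56% in wild-type libraries. Whether the members' difference departs from that background was not tested. With the replicate block, 4 members had higher transgenic coverage in each of 3 pairs, against 30.5% of genes with a peak, at a smallest possible p of 0.25. The labels do not say that the numbers pair the animals, and the deviations of same-numbered libraries from their group means correlated over 31099 genes with r = -0.184, 0.0992 and 0.472. No member had a differential region within 50000 bp or at an FDR of 0.05 or less. Both outcomes were settled beforehand, since no region lay within 2 kb at any FDR and the nearest was 99499 bp away. They add no further test. Read depth is unknown, so what it limits was not tested.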
